A study of Mus musculus with 6 samples.

Results

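The genes described here are 8 genes with low read counts in group 3 innate lymphoid cells (ILC3s) cultured with interferon-γ (IFN-γ) and higher counts with IFN-γ plus IGF-1, the insulin-like growth factor. They are Pga5, C5ar1, Gpr12, Susd2, Cryba4, Sulf2, Ppp1r14c and Podnl1, 8 of the 33157 rows of the count table. They were chosen from these same counts, by a rule that asks for low control counts and a higher value in every IGF-1 library (Podnl1, with 775 to 840 control counts, met the first only loosely), so their differences are given as a description and were not tested. Wild-type mice were the source of the ILC3s, which were sorted from small intestine as CD45+, Lineage-, CD90.2 hi, CD127+, KLRG1- cells and kept for 4 h in culture. The control group received IFN-γ at 20 ng/mL alone, and the IGF-1 group received the same IFN-γ dose plus IGF-1 at 200 ng/mL, so no culture was free of IFN-γ. Each group held 3 libraries. The labels do not say whether these came from separate mice or cultures, so the spread between libraries may be technical. No label gives the animals' age or number.

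IGF-1 is a growth factor of the insulin family that signals through a receptor tyrosine kinase to the PI3K-AKT and RAS-ERK pathways. ILC3s are tissue lymphocytes without antigen receptors that depend on the transcription factor RORγt and make interleukin-22 for the gut barrier. The 8 genes do not belong to one pathway. They encode cell surface receptors (C5ar1, Gpr12, Susd2), secreted or extracellular matrix proteins (Sulf2, Podnl1, Pga5), an intracellular phosphatase inhibitor (Ppp1r14c) and a structural protein of the eye lens (Cryba4).

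The sorted cells carried the markers of their label. All 13 ILC3 markers examined were above 10 CPM (edgeR's counts scaled to library size, with sizes normalised by TMM), with a summed level of 8108 to 8682 CPM in the control libraries and 9777 to 10162 CPM with IGF-1. Total counts were 32573713 to 39206449 per library. The neutrophil genes Elane, Ly6g and Mmp8 and the gastric pepsinogen gene Pgc were at 0 in all 6 libraries. Other genes of the neutrophil list had counts. Its most abundant gene, Mpo, had 22, 53 and 27 counts in controls and 2, 1 and 13 with IGF-1. The plasma cell gene Jchain had 18629 counts in control replicate 3 and 4 to 7 in each of the other libraries. The epithelial list summed to 33.8 to 48.8 CPM in controls and 16.4 to 23.9 CPM with IGF-1, mostly from Epcam. In 2 scarcer genes of this list every IGF-1 library was higher instead. Muc2 had 8, 22 and 3 counts in controls and 67, 53 and 34 with IGF-1. Cdh1 had 1, 0 and 0 and then 9, 3 and 4. The list's remaining genes did not separate the groups. The list of natural killer cells and ILC1s summed to 79.5 to 104 CPM in controls and 126 to 150 CPM with IGF-1. In that list Ncr1, which some ILC3s also express, had means of 28.2 and 71.5 CPM and Klrb1c 38.2 and 30.7 CPM. The ranges of both groups overlapped for B cells and plasma cells (75.4 to 620 and 75.4 to 90.2 CPM, with Jchain). So did those for T cells (44.5 to 52.8 and 36.5 to 48.3 CPM) and endothelium (90.1 to 115 and 80.2 to 97.3 CPM). ILC2s (13.0 to 20.1 and 18.3 to 21.4 CPM) and eosinophils (0.334 to 0.994 and 0.0257 to 0.534 CPM) overlapped too. The ranges of the neutrophil list did not, at 0.779 to 2.12 CPM in controls and 0.087 to 0.748 CPM with IGF-1. The glial gene Sox10, chosen after its values were seen, had 28, 77 and 39 counts in controls and 0 in each IGF-1 library. The part of these differences in the results below was not tested.

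The sequences before the transcription start are shown for the genes that RefSeq's promoter table (GRCm38.p6) holds, because all of these contain one short motif in common. The table matched 5 of the 8 genes by symbol (C5ar1, Gpr12, Cryba4, Sulf2 and Ppp1r14c) with 7 start sites in all, and Pga5, Susd2 and Podnl1 had no entry. Each line gives the 250 bases before 1 start site, 5′ to 3′ along the gene. Only the windows with the common motif are printed. The other start sites of Gpr12 and Sulf2 lack that motif and are not shown. Capitals mark every match to the 15 motifs searched on both strands.
C5ar1, chr7:16259339-16259588 (- strand): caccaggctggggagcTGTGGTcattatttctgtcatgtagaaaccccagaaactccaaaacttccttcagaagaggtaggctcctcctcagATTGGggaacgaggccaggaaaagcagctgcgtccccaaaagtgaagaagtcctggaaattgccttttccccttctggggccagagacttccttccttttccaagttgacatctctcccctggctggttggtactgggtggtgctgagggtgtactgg
Gpr12, chr5:146585240-146585489 (- strand): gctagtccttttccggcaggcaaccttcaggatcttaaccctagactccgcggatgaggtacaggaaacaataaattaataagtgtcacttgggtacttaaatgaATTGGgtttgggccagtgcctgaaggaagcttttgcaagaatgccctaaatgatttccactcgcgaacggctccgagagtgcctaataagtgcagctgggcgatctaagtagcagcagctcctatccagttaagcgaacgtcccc
Cryba4, chr5:112252519-112252768 (- strand): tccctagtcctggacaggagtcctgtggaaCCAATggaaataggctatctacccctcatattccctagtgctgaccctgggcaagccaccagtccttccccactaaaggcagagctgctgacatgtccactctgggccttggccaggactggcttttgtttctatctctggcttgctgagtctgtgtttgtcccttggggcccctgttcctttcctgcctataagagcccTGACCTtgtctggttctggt
Sulf2, chr2:166155286-166155535 (- strand): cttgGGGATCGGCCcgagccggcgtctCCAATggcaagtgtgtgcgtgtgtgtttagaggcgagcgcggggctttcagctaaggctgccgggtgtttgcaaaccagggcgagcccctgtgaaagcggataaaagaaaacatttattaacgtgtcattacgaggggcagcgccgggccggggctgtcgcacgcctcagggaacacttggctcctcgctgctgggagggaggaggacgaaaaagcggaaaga
Ppp1r14c, chr10:3365900-3366149 (+ strand): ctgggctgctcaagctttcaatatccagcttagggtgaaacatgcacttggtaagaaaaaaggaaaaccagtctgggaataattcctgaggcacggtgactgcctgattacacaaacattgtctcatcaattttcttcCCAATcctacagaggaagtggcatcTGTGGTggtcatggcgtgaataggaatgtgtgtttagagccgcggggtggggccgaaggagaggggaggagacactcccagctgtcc

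The motif in common was the CCAAT box, the letters CCAAT or, on the other strand, ATTGG. It was found in 5 of the 7 windows and so in all 5 genes, against 33.8% of the 32851 windows in the table and 37.5% of genes with a window. The CCAAT box was singled out after the search and was the most common of the 15 motifs over all windows. It lies 158 to 154 bases before the start of C5ar1 and 145 to 141 bases before that of Gpr12, on the minus strand in both. It lies on the plus strand 220 to 216 bases before the start of Cryba4, 223 to 219 bases before that of Sulf2 and 112 to 108 bases before that of Ppp1r14c. The letters TGTGGT, a match to RUNX factors, were found in 3 of the 5 genes (C5ar1, Ppp1r14c and the other start site of Gpr12), against 15.9% of genes. The window of Cryba4 held AGGTCA, a motif of ROR receptors, on the minus strand, found in 15.8% of genes. That of Sulf2 held a match to NF-kB (GGGA and CC with any 4 bases between), found in 17.6% of windows. The other start site of Sulf2 had a TATAAA match (12.4% of windows) and the other start sites of Gpr12 and Sulf2 each a GC box (GGGCGG, 32.7% of windows). For 9 of the 15 motifs no window of these genes held the letters: TGACG and TGACGTCA (cAMP response), TGANTCA (AP-1), CACGTG (E-box), GTAAACA (FOXO), TTCNNNGAA (IFN-γ activated site), CCGGAAGT (ETS), GCGGGGGCG (EGR) and TCACNCCAC (sterol response). TGACG lies inside TGACGTCA, so these overlap. Over all windows TGACG was found in 17.8%, and the other absent motifs in 1.05% (sterol response) to 7.02% (IFN-γ activated site). Their absence from 7 windows therefore says little about these genes. The windows were of ordinary base composition, with 48.8% to 60.0% G and C against a median of 52.4%. Matches describe these letters and are not shown to be bound.

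Pga5, the precursor of the stomach protease pepsin, and Gpr12, an orphan receptor, had almost no reads without IGF-1. Pga5 had 9, 3 and 7 counts in control replicates 1, 2 and 3, and 180, 141 and 199 counts in IGF-1 replicates 1, 2 and 3. Its lowest IGF-1 library was 16.9 times its highest control library in CPM, the widest gap among the 7 genes with control counts. The mean was 0.175 ± 0.078 CPM (SD, n = 3) in controls and 4.68 ± 0.615 CPM with IGF-1, a log2 fold change of 4.70 (SE 0.61) or 26.7 times. Its mean was at or above that of 0.712% of the 13483 genes tested in controls and 28.5% with IGF-1, and the low control rank follows from the rule and the filter on low counts. Pepsinogen is known as a product of gastric chief cells. The list of gastric chief and mucous cell markers summed to 0.299 to 1.98 CPM in controls and 0.087 to 0.802 CPM with IGF-1. Most of this came from Muc6, and Pgc, Gkn2 and Tff2 were at 0 everywhere.

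Gpr12 belongs with Gpr3 and Gpr6 to a small family of receptors that raise cyclic AMP through Gs proteins without an added ligand, and it is known mainly from the brain. It had 0 counts in each of the 3 control libraries and 43, 101 and 64 counts with IGF-1. Against a floor of 3 counts over the control group (0.0281 CPM) the IGF-1 libraries together were at least 66.7-fold higher, a bound that covers counting error only. The IGF-1 level was 1.92 ± 0.928 CPM, and its highest library was 2.65 times its lowest, the largest spread of the 8 genes. Its relatives were not detected with IGF-1: Gpr6 had 0 counts in all libraries, and Gpr3 had 1, 5 and 0 counts in controls and 0 in every IGF-1 library.

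C5ar1 encodes the G protein-coupled receptor for the complement fragment C5a, which draws and activates neutrophils, macrophages and mast cells. It had 40, 49 and 24 counts in control replicates 1 to 3 and 311, 267 and 276 with IGF-1. The 3 IGF-1 libraries lay within 1.09 times of each other, the closest of the 8 genes, while the controls had a coefficient of variation of 37.2%. The mean was 1.07 ± 0.398 CPM in controls and 7.71 ± 0.318 CPM with IGF-1, a log2 fold change of 2.85 (SE 0.42) or 7.21 times. The lowest IGF-1 library was 5.03 times the highest control. Neutrophil markers summed to 0.779 to 2.12 CPM in controls and 0.087 to 0.748 CPM with IGF-1, and mast cell markers to 0.0269 to 1.02 and at most 0.283 CPM. Markers of monocytes and macrophages summed to 17.2 to 22.1 CPM in controls and 20.0 to 27.6 CPM with IGF-1, mostly Cd68. Among them Csf1r, the receptor of macrophage growth factor, had 0 counts in all controls and 63, 31 and 0 counts with IGF-1. Cd14 had 151, 93 and 57 counts in controls and 99, 218 and 136 with IGF-1, and C1qa 1, 8 and 1 and then 6, 9 and 28. Other genes of the list went the other way. Adgre1 had 2, 27 and 45 counts in controls and 12, 10 and 0 with IGF-1. C1qc had 33, 16 and 44 and then 7, 17 and 0, and Ms4a7 22, 7 and 45 and then 6, 0 and 10. The part of these cells in the result was not tested.

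Susd2 encodes a membrane protein with a sushi domain that has been described as a partner of galectin-1. It had 139, 203 and 93 counts in controls and 568, 849 and 894 with IGF-1. The controls spanned a wide range, with a coefficient of variation of 42.9%, and IGF-1 replicate 1 was the lowest of its group. The lowest IGF-1 library was still 2.41 times the highest control. Mean levels were 4.13 ± 1.77 and 21.0 ± 5.57 CPM, which is 5.09 times higher with IGF-1.

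Sulf2 encodes an extracellular enzyme that removes sulfate groups from heparan sulfate chains and so changes how growth factors bind them. It had 152, 176 and 150 counts in controls and 629, 470 and 404 with IGF-1. In this gene IGF-1 replicate 1 was the highest of its group, in contrast to Susd2. The mean was 4.51 ± 0.655 CPM in controls and 13.5 ± 2.70 CPM with IGF-1, a log2 fold change of 1.59 (SE 0.28), and the groups were separated by 2.05 times. Podnl1, a podocan-like member of the small leucine-rich proteoglycans of the matrix, had the smallest step. It had 840, 775 and 780 counts in controls and 1807, 2016 and 1733 with IGF-1. Its control libraries were the tightest of the 7 genes with control counts, with a coefficient of variation of 3.21%. The mean was 22.5 ± 0.721 and 50.4 ± 6.96 CPM, a log2 fold change of 1.17 (SE 0.15), and the groups were 2.00 times apart. Fibroblast markers, which include matrix genes, summed to 96.5 to 114 CPM in controls and 95.9 to 122 CPM with IGF-1. Most of this was Cd81, so the sum does not show how the scarcer genes moved, and these went both ways. Counts over the controls and over the IGF-1 libraries were 6 and 42 for Col1a1, 4 and 15 for Col1a2. They were 13 and 74 for Col3a1 and 1 and 16 for Lum, but 211 and 103 for Dcn and 37 and 13 for Pi16. The part of such cells in the result was not tested.

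Ppp1r14c encodes an inhibitor of protein phosphatase PP1 that is switched on by protein kinase C. It had 219, 138 and 204 counts in controls and 467, 576 and 607 with IGF-1. Control replicate 2 was the lowest library and IGF-1 replicate 1 the lowest of its group, and the groups were 2.04 times apart. The mean was 5.23 ± 0.962 CPM in controls and 14.98 ± 2.57 CPM with IGF-1, a log2 fold change of 1.52 (SE 0.27). Cryba4, a beta-crystallin, is a structural protein of the lens. It had 118, 102 and 165 counts in controls and 487, 674 and 459 with IGF-1, with control replicate 3 the highest control and IGF-1 replicate 2 well above the other IGF-1 libraries. The mean was 3.61 ± 0.861 CPM in controls and 14.8 ± 4.13 CPM with IGF-1, a log2 fold change of 2.03 (SE 0.31) with groups 2.67 times apart.

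**Figure D1:**
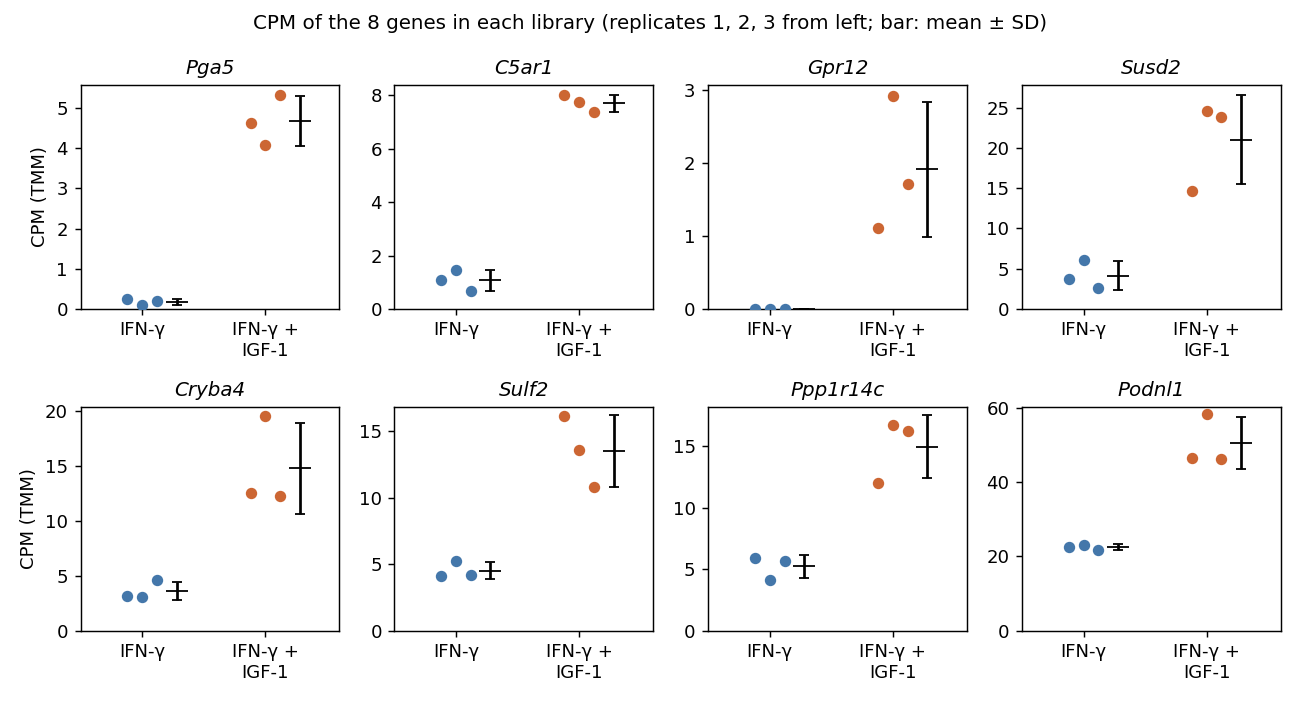
Each panel plots 1 gene in CPM after TMM scaling, from 0, with replicates 1, 2 and 3 of each group from left to right as points and the mean with SD (n = 3) as a bar. In each panel the 3 IGF-1 libraries sit above the 3 control libraries, from a gap of 2.00 times in Podnl1 to Gpr12 with 0 counts in all controls.

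As a description of counts, the label "switched on" comes nearest to Gpr12 and Pga5 and fits the other genes less well. Low control counts were part of the rule, and which cells the reads came from was not tested. Gpr12 had no control count, and Pga5 had 3 to 9 counts in each control library. C5ar1, Susd2, Cryba4, Sulf2 and Ppp1r14c had 24 to 219 counts in each control library. The control mean of Podnl1 was at or above that of 49% of the 13483 genes tested, so this gene was not low among genes the cells express. Those of Susd2, Cryba4, Sulf2 and Ppp1r14c were at or above 25.5% to 29.1% of genes.

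Levels of different genes were compared per length of exon, using exon lengths of the GENCODE annotation of GRCm38. With IGF-1, Cryba4 (17.6 ± 4.93 CPM per kb) and Podnl1 (14.2 ± 1.96 CPM per kb) were the most abundant, and their libraries overlapped. Susd2 (6.13 ± 1.62 CPM per kb) and Ppp1r14c (5.73 ± 0.983 CPM per kb) followed and also overlapped each other. C5ar1 (3.00 ± 0.124 CPM per kb), Pga5 (2.90 ± 0.381 CPM per kb) and Sulf2 (2.31 ± 0.460 CPM per kb) came next, each overlapping its neighbour in this order, and Gpr12 was lowest at 0.763 ± 0.370 CPM per kb. Without IGF-1 Podnl1 led at 6.34 ± 0.203 CPM per kb and Cryba4 was next at 4.30 ± 1.03 CPM per kb. No source used here names the annotation behind the counts, so these lengths are approximate.

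**Figure D2:**
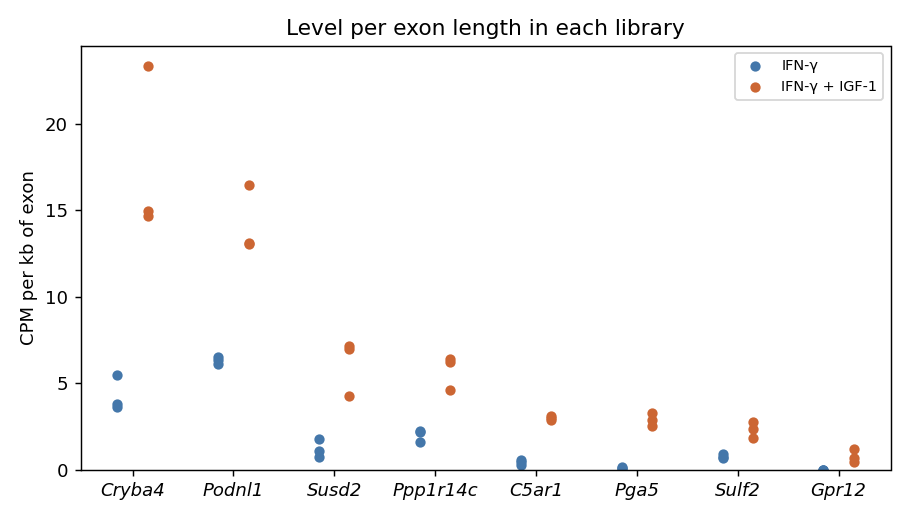
CPM per kb of exon is plotted from 0 for each gene, ordered by the IGF-1 mean, with 1 point per library and 3 libraries per group. Cryba4 and Podnl1 with IGF-1 lie at 13.0 to 23.3 CPM per kb, and Gpr12 with IGF-1 at 0.441 to 1.17.

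The 8 genes did not all peak in the same IGF-1 library, although most did in replicate 2. Within the IGF-1 group the highest library in CPM was replicate 2 for Gpr12, Susd2, Cryba4, Ppp1r14c and Podnl1, replicate 1 for C5ar1 and Sulf2, and replicate 3 for Pga5. Summed over the 8 genes the control libraries stood at 39.6 to 43.2 CPM and the IGF-1 libraries at 116 to 148 CPM. All 8 genes passed the filter on low counts, which Gpr12 and Pga5, with fewer than 10 counts in each control library, passed through their IGF-1 libraries.

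How common the pattern is gives the measure of the choice. That the groups do not overlap with IGF-1 higher holds for all 8 genes by the rule, for 8.81% of the 13483 genes tested and for 6.56% of the 6601 genes with a control mean no higher than that of Podnl1. A gap between groups at least as wide as the smallest of the 8, that of Podnl1, was found in 37 of these 6601 genes (0.561%), the 8 among them. In the opposite direction 36 of the 6660 genes that were as low with IGF-1 (0.541%) had such a gap with control higher. The 29 other genes in the first group were found by this count and were chosen after their values were seen. They include Shc3, an adaptor of receptor tyrosine kinases (2, 0 and 0 counts in controls, and 35, 46 and 28 with IGF-1), and the ERK-linked genes Etv5, a transcription factor (8, 24 and 67 counts against 429, 138 and 279), and Spred1, a feedback inhibitor (183, 193 and 74 counts against 510, 482 and 482). The complement inhibitor Serping1 (9, 29 and 2 counts against 118, 126 and 113) and the monocarboxylate carrier Slc16a6 (416, 359 and 368 counts against 910, 970 and 848) were also among them. Of the 29, edgeR called Slc16a6 alone at an adjusted p under 0.05, and Shc3, Etv5, Spred1 and Serping1 were not called. The genes named are examples and do not show a pathway shared by the 29. Gap by gap, 3 of the 37 genes had no control count: Gpr12, Unc93a2 and 1700042O10Rik. Gpr12 had 208 counts over its IGF-1 libraries, Unc93a2 44 and 1700042O10Rik 63.

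**Figure D3:**
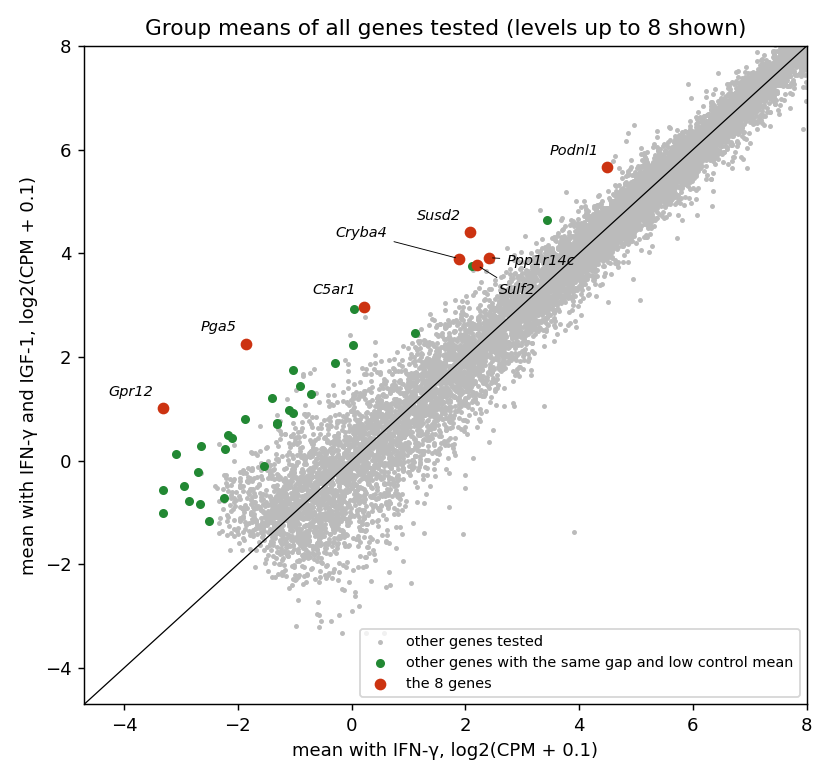
Mean levels of all genes tested are plotted as log2(CPM + 0.1), IFN-γ alone on the x axis and IFN-γ with IGF-1 on the y axis, with the line of equal levels. The 8 genes (red) lie above the line, with 29 other genes (green) that have a control mean no higher than that of Podnl1 and a gap between groups at least as wide as its own.

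The 5 genes whose level followed the 8 most closely were Msmo1, an enzyme of cholesterol synthesis, Slc16a6, Mynn, Ranbp6 and Scfd1. Pearson's r over the 6 libraries, between log2 CPM and the mean of the standardised log2 CPM of the 8 genes, was 0.996 for Msmo1 and Slc16a6, 0.992 for Mynn and for Ranbp6, and 0.991 for Scfd1. These are the highest values among all tested genes with names of their own, the 6 points share the group difference, and r is a description. The genes differ in size of change. Slc16a6 had mean levels of 10.7 ± 0.459 CPM in controls and 24.7 ± 2.96 CPM with IGF-1, whereas Scfd1 had 117 ± 0.747 and 143 ± 5.01 CPM.

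Relatives and partners of the 8 genes were set beside all genes tested. Of 194 such genes listed, 136 were tested with edgeR's quasi-likelihood test over all 13483 genes. At an adjusted p under 0.05, 1 was higher, the galectin-1 gene Lgals1, and 0 were lower, where 0.230% of all genes were called higher and 0.267% lower. With so few calls over all genes, this count cannot show whether the relatives moved. The listed genes had a median log2 fold change of -0.05, beside -0.01 over all genes, and 44.9% were positive, beside 48.7% of all genes. An unadjusted p under 0.05 was reached by 22 of them (16.2%) and by 1593 of all genes tested (11.8%). DESeq2 called 3 higher and 4 lower, and 200 and 256 over all genes.

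Lgals1, the reported partner of Susd2, rose with IGF-1: its mean was 265 ± 52.8 CPM in controls and 741 ± 238 CPM with IGF-1 (1.48 on the log2 scale, SE 0.24, edgeR adjusted p = 0.0350). It had 11054, 9845 and 7325 counts in controls and 33632, 30712 and 17475 with IGF-1, and the groups did not overlap. The call was lost in 5 of the 6 fits that leave out 1 library, all but the one without IGF-1 replicate 3, with adjusted p from 0.0158 to 0.183. Among 14 tested genes of sushi domain proteins and galectins the median log2 fold change was -0.11 and 5 were positive. The sushi proteins Susd3 (130 ± 43.8 and 157 ± 8.28 CPM, edgeR adjusted p = 0.673) and Susd6 (57.3 ± 9.83 and 52.0 ± 7.42 CPM, edgeR adjusted p = 0.817) overlapped between groups. Il2ra, the interleukin-2 receptor chain with sushi domains, stood at 1015 ± 119 and 660 ± 42.9 CPM (-0.62, SE 0.12, edgeR adjusted p = 0.0688). Susd1 had 39 counts over the controls and 7 over the IGF-1 libraries and was not tested.

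In the complement list 20 of 30 genes were tested, 13 were positive and 0 were called, with a median log2 fold change of 0.18. C5ar2, the other C5a receptor and the neighbour of C5ar1 on its chromosome, had 7, 8 and 5 counts in controls and 15, 45 and 7 with IGF-1, too few to test. The C3a receptor gene C3ar1 stood at 1.46 ± 0.440 and 1.70 ± 0.895 CPM (edgeR adjusted p = 0.939). The precursor of C5a, Hc, had 61 counts over the controls and 61 over the IGF-1 libraries, and C3 had 3 and 3. The smallest p belonged to the integrin chain Itgb2 (99.6 ± 16.7 and 153 ± 4.55 CPM, 0.62, SE 0.14, edgeR adjusted p = 0.105) and to Serping1 (0.388 ± 0.425 and 3.24 ± 0.361 CPM, 3.06, SE 0.87, edgeR adjusted p = 0.183). In both the 3 IGF-1 libraries lay above the 3 controls.

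The list of heparan sulfate genes beside Sulf2 had 33 tested genes, 14 of them positive, a median of -0.06 and 0 calls. Its sister enzyme Sulf1 had 5, 28 and 0 counts in controls and 11, 17 and 1 with IGF-1. Sumf1, which activates sulfatases in the endoplasmic reticulum, was at 32.2 ± 7.05 and 26.7 ± 1.85 CPM (edgeR adjusted p = 0.641). The chain polymerase Ext1 was at 5.04 ± 0.451 and 12.5 ± 2.07 CPM (1.31, SE 0.26, edgeR adjusted p = 0.0747) and the heparan sulfate carrier Sdc1 at 47.6 ± 5.70 and 26.9 ± 2.44 CPM (-0.82, SE 0.16, edgeR adjusted p = 0.0598). Groups did not overlap in either gene, in opposite directions, and neither passed the test.

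Around Gpr12, 25 genes of Gs proteins and cyclic AMP were tested, with 11 positive, a median of -0.05 and 0 calls. The adenylyl cyclase Adcy4 (21.2 ± 2.83 and 13.4 ± 1.19 CPM, edgeR adjusted p = 0.201) and the phosphodiesterase Pde7a (101 ± 16.4 and 70.6 ± 11.4 CPM, edgeR adjusted p = 0.229) had the smallest p. Both were lower in all 3 IGF-1 libraries than in any control. In the list of PP1, its inhibitors and myosin phosphatase beside Ppp1r14c, 26 genes were tested, 12 were positive, the median was -0.03 and 0 were called. Its closest expressed relative Ppp1r14b was at 23.51 ± 3.796 and 32.04 ± 4.26 CPM (0.45, SE 0.18, edgeR adjusted p = 0.370). Ppp1r14a had 24 counts over the controls and 45 with IGF-1, and Ppp1r14d 0 and 1. The catalytic subunits that such inhibitors bind differed little: Ppp1ca by 0.29 (SE 0.19), Ppp1cb by 0.05 (SE 0.13) and Ppp1cc by 0.12 (SE 0.12) on the log2 scale, with edgeR adjusted p of 0.608, 0.930 and 0.779. The myosin phosphatase subunit Ppp1r12c was at 127 ± 23.3 and 79.4 ± 2.87 CPM (-0.68, SE 0.15, edgeR adjusted p = 0.0942), and the myosin light chain Myl6 at 1102 ± 42.1 and 1426 ± 236 CPM (edgeR adjusted p = 0.286).

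The crystallins other than Cryba4 were mostly not expressed: 6 of 17 had no count in any library and 7 could be tested, with 0 called and a median of -0.06. Cryba1 had 6 counts over the controls and 0 with IGF-1. Crybb1 overlaps Cryba4 in RefSeq's gene table, and it had 0, 5 and 47 counts in controls and 18, 106 and 65 with IGF-1 (1.85, SE 1.31, edgeR adjusted p = 0.648). The kit does not mark strand, so reads in the shared part cannot be told apart. The alpha-crystallin gene Cryaa was at 96.7 ± 12.5 and 123 ± 19.1 CPM (edgeR adjusted p = 0.401), and Cryab, a stress-induced chaperone, at 3.90 ± 4.47 and 0.723 ± 1.18 CPM (edgeR adjusted p = 0.549). Of the aspartic proteases beside Pga5, 10 were tested, 2 were positive, the median was -0.15 and 0 were called. Bace2 was at 2.30 ± 0.058 and 0.730 ± 0.198 CPM (-1.65, SE 0.61, edgeR adjusted p = 0.309) and Sppl3 at 138 ± 13.3 and 114 ± 6.72 CPM (edgeR adjusted p = 0.424), both lower in every IGF-1 library. Of the small leucine-rich proteoglycans beside Podnl1 only 3 of 16 could be tested. Its closest relative Podn had 2 counts over the controls and 1 with IGF-1. Chad was at 140 ± 82.0 and 210 ± 57.1 CPM (edgeR adjusted p = 0.597), and Dcn had 118, 92 and 1 counts in controls and 55, 15 and 33 with IGF-1.

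**Figure D4:**
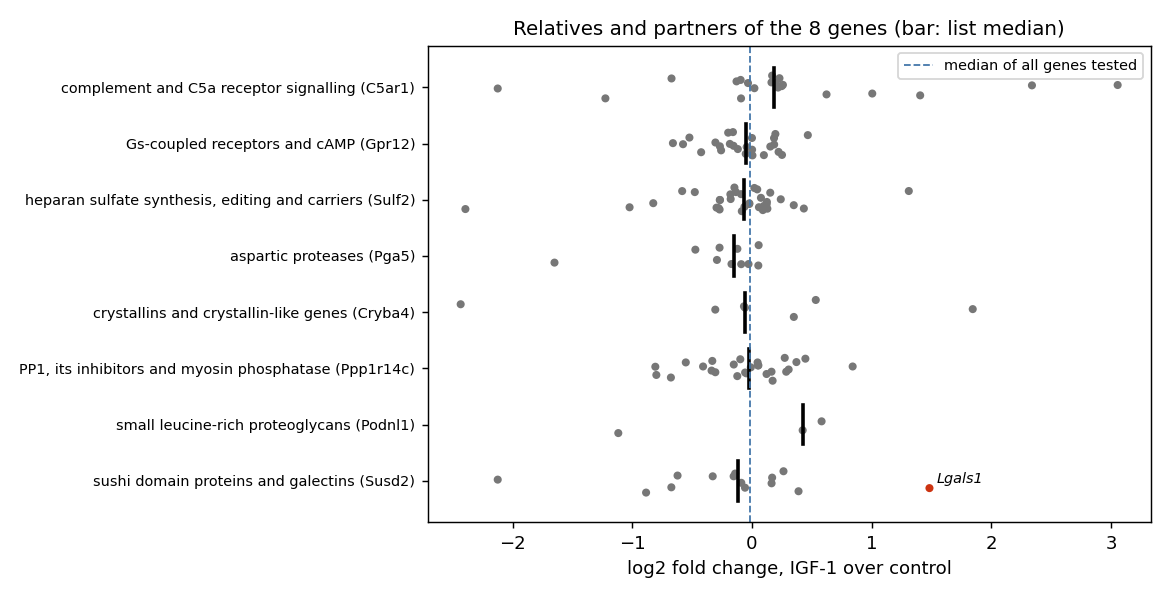
Each point is the log2 fold change (IGF-1 over control, x axis) of 1 tested gene related to the gene in brackets, with black bars for list medians and a dashed line for the median of all genes tested. List medians run from -0.15 to 0.42, the latter over 3 genes, and Lgals1 (red) is the single gene called.

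Genes beside the 8 on the chromosome were looked up in RefSeq's gene table, with 18 neighbouring or overlapping genes in the count table. Of these 11 could be tested, and edgeR called 0 higher and 0 lower, with 3 at an unadjusted p under 0.05 (27.3%, beside 11.8% of all genes). DESeq2 called 0 higher and 1 lower. Beside Pga5, the long noncoding RNA 2210404E10Rik had 0 counts in each control and 11, 3 and 13 with IGF-1, at least 8.66-fold higher against a floor of 3 counts over the control group. On its other side Vwce had 0 counts in each control and 15, 0 and 1 with IGF-1. Next to Gpr12, the noncoding Gm34333 had 0, 2 and 0 counts and 5, 19 and 0 with IGF-1, and Gm8494 stood at 7.22 ± 1.49 and 8.17 ± 0.788 CPM. Beside Cryba4 the long noncoding RNA Miat was at 3.02 ± 1.88 and 8.10 ± 1.05 CPM (1.42, SE 0.48, edgeR adjusted p = 0.265), with all 3 IGF-1 libraries above the controls, and Tpst2 on the other side at 125 ± 24.0 and 153 ± 21.8 CPM. Iyd beside Ppp1r14c had 3, 0 and 1 counts in controls and 37, 12 and 2 with IGF-1.

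Other neighbours lay near their control level or below it. The nuclear receptor coactivator Ncoa3 beside Sulf2 was at 163 ± 20.3 and 105 ± 10.8 CPM (-0.63, SE 0.14, edgeR adjusted p = 0.0938), lower in all 3 IGF-1 libraries, opposite in direction to Sulf2. Dcaf15 beside Podnl1 was at 94.9 ± 13.3 and 74.1 ± 5.52 CPM (edgeR adjusted p = 0.337), and Nanos3 had 56 and 68 counts over the groups. Cc2d1a, which overlaps Podnl1 in the gene table, was at 39.8 ± 2.44 and 41.6 ± 5.71 CPM (edgeR adjusted p = 0.923). As with Crybb1 and Cryba4, reads in the part these genes share cannot be told apart by strand. The levels of Podnl1 given above carry this limit. Cabin1 beside Susd2 was at 127 ± 6.42 and 133 ± 25.8 CPM (edgeR adjusted p = 0.912), and Gm19688 had 37 and 21 counts. Inafm1 beside C5ar1 was at 17.6 ± 6.26 and 14.7 ± 2.35 CPM (edgeR adjusted p = 0.789). Gm11468 beside Sulf2 had 1 count in all and Gm18703 beside Ppp1r14c had 0.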

How the data were processed

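Libraries of sorted ILC3 RNA were made with the SMART-Seq HT kit, an unstranded whole-transcript method. The authors deposited a table of unnormalised counts by gene symbol. The tools featureCounts 1.5.3, SAMtools 1.15.1, HISAT2 2.2.1, fastp 0.23.2 and the build GRCm39 are named in the submitters' processing notes. For annotation, strand setting and multi-mapping reads the entry is: not given in the sources used here. Libraries were grouped by title.

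Genes were filtered with filterByExpr (minimum count 10, minimum total 15), leaving 13483, and compared by glmQLFit and glmQLFTest of edgeR 4.0.16 (R 4.3.3) after TMM scaling, in a model of group alone, calling genes at a Benjamini-Hochberg adjusted p under 0.05. The test was checked on simulated data. SE is the log2 fold change divided by the square root of F. The 8 genes, the lists and the rules were chosen with earlier results of these data known. The rule for relatives named every called gene, the closest paralogs, known ligands or partners and the 2 smallest p per list. Of 194 listed relatives, 1 symbol was not in the table. Replicates differed beyond sampling noise (chi-square per degree of freedom 39.0 to 88.5). With 3 libraries a group, an exact two-sided permutation test cannot go below p = 0.1. The reads carry no molecular identifiers, so floors cover counting error only. RefSeq's tables are of GRCm38.p6, so they served for names, neighbours and printed promoters only. Alternatives were scaling by library size, upper quartile or RLE, the test of DESeq2 1.42.0, limma-voom (limma 3.58.1), no filter, a minimum count of 30, a replicate block and each library left out. The summed level of 1 marker list is not reported here.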

Additional observations from a re-analysis of the deposited data

How the results depend on the processing

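The rule that chose the 8 genes fixed the sign and the separation of their groups, so that these held in the alternatives is no sign of stability. With 1 library left out, Podnl1 ran from 1.04 to 1.22 and Pga5 from 4.40 to 5.00. The fitted value of Gpr12, with controls at 0, was 9.12, and 5.16 with a prior count of 2.

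Counts of calls depended on the setting. Over all genes (31 higher, 36 lower), DESeq2 gave 200 and 256, no filter 171 and 258, and limma-voom 60 lower. Leaving out 1 library gave 0 to 24 higher and 0 to 31 lower: 24 and 31 without control replicate 1, and at most 6 and 11 without any of the other 5 libraries, with 0 higher without control replicate 3, IGF-1 replicate 1 or IGF-1 replicate 2. The replicate block gave 3 higher and 5 lower. Deviations from the group mean correlated at -0.05, 0.003 and 0.06 in same-numbered libraries, and at -0.10 to 0.08 in the other pairs. With 3 libraries a group this cannot show whether same-numbered libraries were paired, and the labels do not say. Among relatives (1 higher, 0 lower), DESeq2 gave 3 and 4, no filter 5 and 6, library size scaling 2 lower, limma-voom 3 lower and a minimum count of 30 gave 1 lower. Leaving out 1 library gave 0 to 1 in each direction. Among neighbours (0 and 0), no filter gave 1 and 1 and DESeq2 1 lower. The cause was not tested.

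Of the named relatives and neighbours, 4, none of them called, changed sign when 1 library was left out: C3ar1 (-0.30 to 0.47), Ppp1cb (-0.022 to 0.16), Cabin1 (-0.087 to 0.19) and Cc2d1a (-0.060 to 0.12). The folds of Pga5 and Gpr12 rest on 3 to 9 and 0 control counts per library.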
